A study of Mus musculus with 14 samples.

Results

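*Ccn1*, *Ccn2*, *Tgfbi*, *Skil*, *Pmepa1*, *Id1*, *Id2* and *Id3* are 8 transcriptional targets of the TGF-β superfamily, and their mRNA was followed through 14 libraries of 4T1 spheroids. The 8 genes were taken by symbol as known transcriptional targets of TGF-β and bone morphogenetic protein (BMP) signaling, and all 8 were among the 19525 genes of the deposited count table. 4T1 is an epithelial mouse mammary cancer line. Every line carried a lentiviral pLKO hairpin and was a puromycin-selected polyclonal pool, with 1 hairpin label per target. ASP shSCR (n = 4) carried the scrambled hairpin and was kept 5 days in LLM, a lung-like medium, with 700 µM aspartate, and NoASP shSCR (n = 3) carried the same hairpin in LLM to which no aspartate was added. ASP shGRIN2D (n = 3) carried a hairpin against *Grin2d*, an NMDA receptor subunit, and ASP shDHPS (n = 4) a hairpin against *Dhps*, the first enzyme of eIF5A hypusination, both with 700 µM aspartate for 5 days. All spheroids grew with Matrigel and rat-tail collagen I, were washed in cycloheximide, and gave polyadenylated RNA from the cytosolic lysate. The NoASP shSCR libraries are numbered 2 to 4 and the ASP shGRIN2D libraries 1 to 3, as labelled.

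TGF-β ligands bind a pair of serine/threonine kinase receptors that phosphorylate Smad2 and Smad3, and these enter the nucleus with Smad4. BMP ligands use related receptors and Smad1, Smad5 and Smad9, for which the Id genes are classical direct targets. Some targets restrain the pathway that induces them, among them *Skil*, which encodes the Smad co-repressor SnoN, and *Pmepa1*, whose membrane protein sequesters receptor-activated Smads. *Ccn1* and *Ccn2* encode secreted matricellular proteins (CYR61 and CTGF) that also respond to YAP, TAZ and serum factors, and *Tgfbi* encodes an extracellular matrix protein named for its induction by TGF-β. The Id proteins lack a DNA-binding region and hold E proteins away from DNA.

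The libraries held 12731123 to 23231378 counts, and a member held between 61 and 3473 counts in a library. *Dhps* was at 6.93 ± 1.74 CPM (counts scaled to library size; SD, n = 4) in ASP shDHPS versus 19.4 ± 2.28 CPM in the 4 libraries of ASP shSCR, log2 fold change -1.48 (SE 0.15) (edgeR quasi-likelihood F-test, QL F-test, with Benjamini-Hochberg adjustment, BH-adjusted p = 8.315e-06). *Grin2d* was at 2.46 ± 0.590 CPM (SD, n = 3) in ASP shGRIN2D versus 3.60 ± 0.423 CPM (SD, n = 4), log2 fold change -0.55 (SE 0.28), which did not pass the test (edgeR QL F-test, BH-adjusted p = 0.516). The epithelial label was borne out by *Epcam* (418 to 687 CPM over the libraries) and *Krt8* (1261 to 1787 CPM), whereas *Ptprc*, *Pecam1* and *Dcn* were at most 0.648, 0.550 and 0.0535 CPM. *Col1a1* was at 0.133 to 1.39 CPM, yet the fibroblast-associated genes *Thy1* (143 to 253 CPM) and *Pdgfra* (22.7 to 40.7 CPM) and the macrophage-associated *Cd68* (5.51 to 16.0 CPM) were also detected. The summed level of 6 epithelial markers was 4257 to 4390 CPM in ASP shSCR, 4216 to 4367 in NoASP shSCR, 3275 to 3523 in ASP shGRIN2D and 3430 to 4006 in ASP shDHPS, and its part in the results on both knockdowns was not tested. The sum of the 4 measured fibroblast genes overlapped between each knockdown and ASP shSCR. The sum of the 2 measured immune genes was 12.5 to 16.6 CPM in ASP shDHPS, 7.98 to 10.3 in ASP shGRIN2D and 5.82 to 13.0 in ASP shSCR, and that of the 2 measured endothelial genes 0 to 0.216, 0 to 0.400 and 0.278 to 0.550 CPM. Their part was not tested either. Replicate 2 of ASP shSCR and replicate 2 of NoASP shSCR stood apart from the other shSCR libraries on the first principal component (15.0% of the variance). They were at -45.8 and -33.5 against -14.8 to 9.37, so fold changes without both are given for *Ccn1*, *Ccn2* and *Skil*. In bulk RNA, fewer cells of a type and less RNA per cell cannot be told apart.

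Per kilobase of the longest annotated coding transcript, the 8 genes spanned a wide range in ASP shSCR. *Id2* and *Pmepa1* were highest, at 35.0 ± 3.13 and 33.5 ± 3.75 CPM per kb (SD, n = 4). *Id3* followed at 28.6 ± 3.52, then *Skil* at 17.5 ± 5.78, *Ccn1* at 16.4 ± 2.23 and *Id1* at 15.4 ± 1.41 CPM per kb. *Ccn2* was at 4.90 ± 1.52 and *Tgfbi* at 1.84 ± 0.258 CPM per kb. All CPM values that follow are not divided by length and are compared only within a gene.

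Between the groups, 3 of the 8 genes changed in at least 1 comparison: *Ccn1* was higher in ASP shDHPS than in each of the other groups, *Pmepa1* was lower in both knockdowns than in ASP shSCR, and *Id2* was lower in ASP shDHPS than in ASP shGRIN2D. None of the 8 passed with aspartate. The threshold for a call was a BH-adjusted p of 0.05 over all 19525 genes. With aspartate (ASP shSCR against NoASP shSCR) edgeR called 0 of the 8 genes, where 0% of all genes were called, and DESeq2 also called 0 of the 8. With a replicate block 0 of the 8 were called, beside 2 of all genes, or 64 within the 7 shSCR libraries. An unadjusted p under 0.05 (edgeR QL F-test) was found for 0 of the 8 and 424 of all genes with aspartate. These counts were 4 and 2040 with shGRIN2D, 5 and 3769 with shDHPS, and 4 and 2898 between the knockdowns. With shGRIN2D 1 of the 8 was called, lower (*Pmepa1*), where 1.16% of all genes were called and 0.732% were lower. That *Pmepa1* call was close to the threshold and held in 8 of 15 alternative fits, among them 1 of the 7 that left 1 library out. With shDHPS 2 of the 8 were called, 1 higher (*Ccn1*) and 1 lower (*Pmepa1*), where 4.22% of all genes were called, 1.65% higher and 2.57% lower. Between the knockdowns 2 of the 8 were called, 1 higher in ASP shDHPS (*Ccn1*) and 1 lower (*Id2*), where 2.82% of all genes were called, 1.2% higher and 1.62% lower. The tests of each knockdown share the 4 ASP shSCR libraries. The median log2 fold change of the 8 genes was 0.03 with aspartate, 0.08 with shGRIN2D, -0.12 with shDHPS and -0.13 for shDHPS against shGRIN2D, beside medians over all genes of 0.00, 0, 0.00 and 0.01. The 8 genes did not all move one way: 3 had a positive and 5 a negative log2 fold change with shDHPS.

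**Figure D1:**
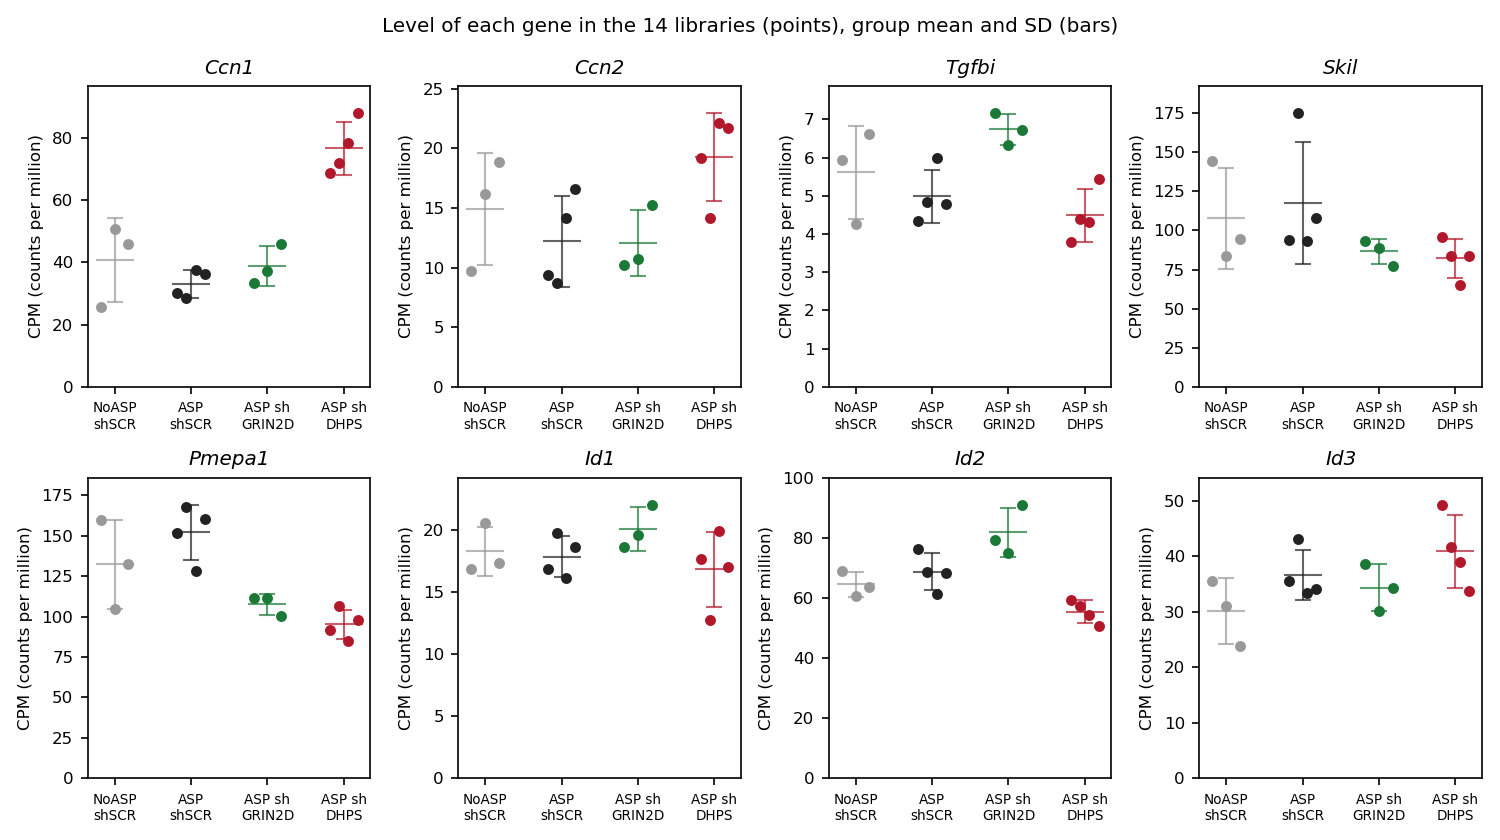
CPM of each of the 8 genes (vertical axis, linear, from 0) in NoASP shSCR, ASP shSCR, ASP shGRIN2D and ASP shDHPS, 1 point per library, with the group mean and SD as bars. The 4 ASP shDHPS libraries sit at 68.6 to 87.8 CPM for *Ccn1*, above the highest other library at 50.8 CPM, and both knockdowns lie below every ASP shSCR library for *Pmepa1*.

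Among the secreted matricellular genes, *Ccn1* showed the widest separation. Its level was 30.0, 28.4, 37.6 and 36.1 CPM in ASP shSCR replicates 1 to 4, and 25.5, 50.8 and 45.8 CPM in NoASP shSCR replicates 2 to 4. It was 33.2, 37.3 and 45.8 CPM in ASP shGRIN2D replicates 1 to 3, and 68.6, 71.8, 78.4 and 87.8 CPM in ASP shDHPS replicates 1 to 4. All 4 shDHPS libraries lay above all 10 others, and the other 3 groups overlapped. The rise with shDHPS over ASP shSCR was 2.32-fold, log2 fold change 1.22 (SE 0.16) and a 95% interval of 0.89 to 1.54 (edgeR QL F-test, BH-adjusted p = 0.000124). Against NoASP shSCR, the next group in order, ASP shDHPS was 0.91 (SE 0.17) higher on the log2 scale (edgeR QL F-test, BH-adjusted p = 0.00642). The log2 change of *Ccn1* with shGRIN2D was 0.23 (SE 0.17) (edgeR QL F-test, BH-adjusted p = 0.675), and with aspartate it was -0.30 with a 95% interval of -0.66 to 0.05. The rise with shDHPS passed in all 16 alternatives that tested against no change, at 1.14 to 1.29, and also in the test against a 1.5-fold change. The alternatives counted for each gene below are those against no change.

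The promoter of *Ccn1* is shown because it carries the member with the largest change, and that of *Id2* because it is the other gene that differed between the knockdowns. RefSeq windows of 300 bases around the start, on GRCm38.p6, were matched for 4 of the 8 genes (*Ccn1*, *Tgfbi*, *Id2* and *Id3*). Capitals mark matches, on either strand, to a small set of motifs. For Smad proteins these were the Smad box, written CAGAC, and a GC-rich element that binds the same family, written GGCGCC. For TEAD factors, the DNA-binding partners of YAP and TAZ, the letters searched were GGAATG. For the cyclic AMP response element the whole motif TGACGTCA and, contained in it and so matched wherever it is, the short part TGACG were searched. The core promoter letters were TATAAA. The *Ccn1* window is chr3:145649936-145650235 and the *Id2* window chr12:25096043-25096342, both on the minus strand and both printed 5′ to 3′ along the gene:
Ccn1: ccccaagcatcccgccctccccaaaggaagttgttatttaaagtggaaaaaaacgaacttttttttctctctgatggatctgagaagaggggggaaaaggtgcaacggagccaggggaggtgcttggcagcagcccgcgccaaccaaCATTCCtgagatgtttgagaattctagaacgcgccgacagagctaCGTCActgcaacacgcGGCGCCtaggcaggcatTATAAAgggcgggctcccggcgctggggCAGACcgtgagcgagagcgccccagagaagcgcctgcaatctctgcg
Id2: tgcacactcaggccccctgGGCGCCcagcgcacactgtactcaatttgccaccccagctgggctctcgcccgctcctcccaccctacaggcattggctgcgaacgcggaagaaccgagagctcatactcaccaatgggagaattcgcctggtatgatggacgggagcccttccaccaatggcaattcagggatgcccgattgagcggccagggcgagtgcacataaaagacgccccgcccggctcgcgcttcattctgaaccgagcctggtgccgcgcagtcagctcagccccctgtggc
Counted from the start base as 0, the *Ccn1* window held the TEAD motif on the reverse strand at -103, the short response element on the reverse strand at -58, the GC-rich element at -42, the TATA letters at -25 and the Smad box at 3. The *Id2* window held 1 match, to the GC-rich element, at -231. Among all 32851 promoter windows, 49.6% held the Smad box, 11.9% the GC-rich element, 14.7% the TEAD motif, 20.8% the short response element, 1.79% the full one and 13.6% the TATA letters. The GC-rich element and the Smad box were each found in 3 of the 4 member windows, the TEAD motif and the short response element each in 2, the TATA letters in 1 and the full response element in 0, and these matches are descriptions of letters only.

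*Ccn2*, the paralog of *Ccn1*, was also highest in ASP shDHPS, with a smaller separation. It was at 9.40, 8.69, 14.2 and 16.6 CPM in ASP shSCR, and at 9.74, 16.2 and 18.8 CPM in NoASP shSCR. ASP shGRIN2D gave 10.2, 10.7 and 15.3 CPM, and ASP shDHPS 19.2, 14.1, 22.1 and 21.7 CPM. The 3 shDHPS libraries other than replicate 2 were above every ASP shSCR and ASP shGRIN2D library, and replicate 2 fell within the range of ASP shSCR. The log2 fold change with shDHPS was 0.67 (SE 0.21) and a 95% interval of 0.24 to 1.11 (edgeR QL F-test, BH-adjusted p = 0.0722), which missed the threshold here and passed it in 5 of 16 alternatives. With shGRIN2D it was -0.01, with a 95% interval of -0.49 to 0.47, and with aspartate -0.30, with a 95% interval of -0.77 to 0.17. Both shSCR replicate 2 libraries were the lowest of their group for *Ccn1* and for *Ccn2*. Without both of them the log2 fold changes with shDHPS were 1.15 for *Ccn1* (edgeR QL F-test, BH-adjusted p = 4.19e-06) and 0.55 for *Ccn2* (0.109 by the same test).

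*Tgfbi*, the extracellular matrix gene, was the least abundant of the 8. It was at 4.33, 4.84, 5.98 and 4.79 CPM in ASP shSCR and at 5.94, 4.27 and 6.62 CPM in NoASP shSCR. In ASP shGRIN2D it reached 7.16, 6.34 and 6.73 CPM, and in ASP shDHPS it was at 3.78, 4.40, 4.32 and 5.45 CPM. All 3 shGRIN2D libraries were above all ASP shSCR and all shDHPS libraries, with no overlap. Neither difference passed the test. The log2 change was 0.44 (SE 0.19) for shGRIN2D over ASP shSCR (edgeR QL F-test, BH-adjusted p = 0.400) and -0.59 (SE 0.19) for shDHPS against shGRIN2D (0.105 by the same test). Groups without overlap are common here: among genes of at least 5 CPM, 17.1% did not overlap between ASP shGRIN2D and ASP shSCR, where 2 of the 8 did not (*Tgfbi* and *Pmepa1*). The share was 16.7% for ASP shDHPS and ASP shSCR, where 3 of the 8 did not (*Ccn1*, *Pmepa1* and *Id2*), and 21.5% between the knockdowns, where 3 of the 8 did not (*Ccn1*, *Tgfbi* and *Id2*). Between ASP shSCR and NoASP shSCR 0 of the 8 were apart, against 1.91% of genes.

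The feedback genes, which restrain Smad signaling, were lower in the knockdowns for *Pmepa1*, while *Skil* did not pass the test. *Pmepa1* was at 152, 168, 128 and 161 CPM in ASP shSCR and at 160, 105 and 133 CPM in NoASP shSCR. In ASP shGRIN2D it was at 111, 111 and 100 CPM, and in ASP shDHPS at 91.5, 106, 85.1 and 97.8 CPM. Every knockdown library was below every ASP shSCR library, whereas the NoASP shSCR libraries spread across both ranges. With shDHPS *Pmepa1* fell to 0.626 of the ASP shSCR level, log2 fold change -0.68 (SE 0.11) and a 95% interval of -0.91 to -0.44 (edgeR QL F-test, BH-adjusted p = 0.00140), which held in all 16 alternatives that tested against no change and was lost in the test against a 1.5-fold change. With shGRIN2D it fell to 0.708 of that level, log2 fold change -0.50 (SE 0.12) and a 95% interval of -0.75 to -0.25 (edgeR QL F-test, BH-adjusted p = 0.0459). That call was close to the threshold. It was lost among the 13421 genes kept by edgeR's filterByExpr (0.0549 by the same test) and without any of ASP shSCR replicates 1, 2 and 4 or ASP shGRIN2D replicates 1 to 3, where the log2 fold change lay between -0.45 and -0.52 and the adjusted p 0.0926 to 0.267, and it passed in 8 of 15 alternatives (0.000685 to 0.267 over all 15). It was also lost against a 1.5-fold change. The knockdowns did not differ detectably in *Pmepa1*, with a log2 difference of -0.18 and a 95% interval of -0.43 to 0.07 (edgeR QL F-test, BH-adjusted p = 0.511).

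*Skil* was at 94.0, 175, 93.3 and 108 CPM in ASP shSCR and at 145, 83.9 and 94.7 CPM in NoASP shSCR. It was at 93.5, 88.8 and 77.4 CPM in ASP shGRIN2D and at 95.9, 83.5, 65.2 and 83.5 CPM in ASP shDHPS. Replicate 2 was the highest library of both shSCR groups, and the remaining ASP shSCR libraries overlapped both knockdowns. The log2 change was -0.44 (SE 0.19) for shGRIN2D (edgeR QL F-test, BH-adjusted p = 0.410) and -0.52 (SE 0.18) for shDHPS (0.103 by the same test). It passed in 1 of 15 and 1 of 16 alternatives, in both with the replicate number as a block (edgeR QL F-test, BH-adjusted p = 0.0371 and 0.00210). Same-numbered libraries deviated together (r over 0.1) in 0 of 3 pairs for shGRIN2D and in 3 of 4 for shDHPS. Without both shSCR replicate 2 libraries the log2 changes were -0.19 and -0.26 (edgeR QL F-test, BH-adjusted p = 0.676 and 0.270). With aspartate the log2 fold change was 0.13, with a 95% interval of -0.27 to 0.52.

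**Figure D2:**
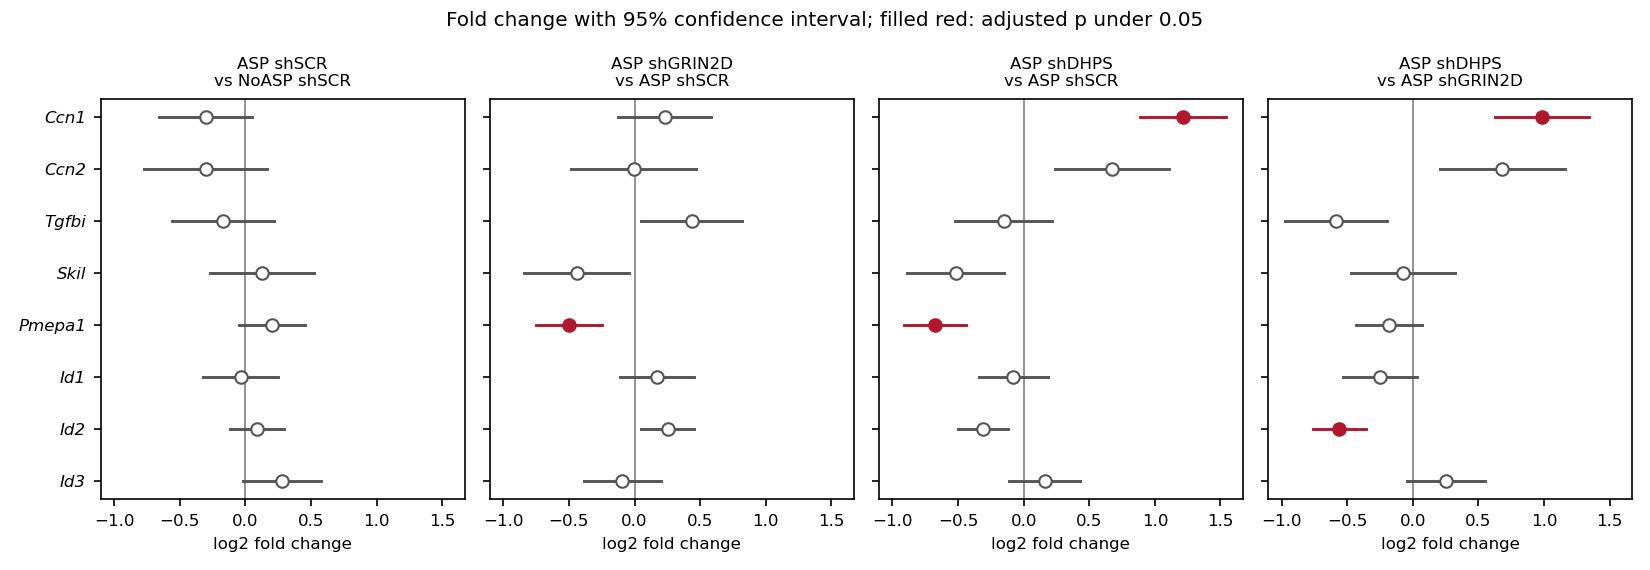
Log2 fold change of each of the 8 genes (points) with its 95% confidence interval (lines) in the 4 comparisons named above the panels, with filled red points for an adjusted p under 0.05 (edgeR). *Pmepa1* is filled on the negative side in both knockdown panels, *Ccn1* on the positive side in both panels that hold shDHPS, and *Id2* only in the direct comparison of the knockdowns.

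Of the Id genes, the BMP-responsive members, *Id2* was called between the knockdowns and *Id1* and *Id3* were called in no comparison, and the Id genes were not tested against each other. *Id2* was at 76.5, 68.8, 61.4 and 68.6 CPM in ASP shSCR and at 69.2, 60.9 and 63.9 CPM in NoASP shSCR. It was at 79.5, 75.3 and 91.2 CPM in ASP shGRIN2D and at 59.4, 57.6, 54.4 and 50.9 CPM in ASP shDHPS. The shDHPS libraries were below all 10 others, and the shGRIN2D libraries overlapped ASP shSCR through replicate 1 of the latter. Between the knockdowns *Id2* in shDHPS was 0.678 of its shGRIN2D level, log2 fold change -0.56 (SE 0.10) and a 95% interval of -0.76 to -0.36 (edgeR QL F-test, BH-adjusted p = 0.00183), past the threshold in all 14 alternatives that tested against no change. Against ASP shSCR neither side passed, at 0.25 (SE 0.10) for shGRIN2D (edgeR QL F-test, BH-adjusted p = 0.323) and -0.31 (SE 0.09) for shDHPS (0.0592 by the same test, past the threshold in 6 of 16 alternatives).

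*Id1* was at 16.8, 19.7, 16.1 and 18.6 CPM in ASP shSCR and at 16.9, 20.5 and 17.3 CPM in NoASP shSCR. It was at 18.6, 19.6 and 22.0 CPM in ASP shGRIN2D and at 17.6, 12.7, 19.9 and 17.0 CPM in ASP shDHPS. All 4 groups overlapped, and the 95% intervals of the log2 fold change were -0.32 to 0.25 with aspartate, -0.11 to 0.45 with shGRIN2D and -0.34 to 0.19 with shDHPS. *Id3* was at 35.6, 43.2, 33.4 and 34.1 CPM in ASP shSCR and at 35.6, 31.0 and 23.8 CPM in NoASP shSCR. It was at 38.5, 30.1 and 34.3 CPM in ASP shGRIN2D and at 49.2, 41.6, 38.9 and 33.6 CPM in ASP shDHPS. These groups overlapped too, and the intervals were -0.02 to 0.58 with aspartate, -0.39 to 0.20 with shGRIN2D and -0.11 to 0.43 with shDHPS.

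Ordered by group mean, ASP shDHPS was the highest group for *Ccn1*, *Ccn2* and *Id3* and the lowest for *Tgfbi*, *Skil*, *Pmepa1*, *Id1* and *Id2*. ASP shGRIN2D was the highest group for *Tgfbi*, *Id1* and *Id2*. Among the neighbours in these orders, ASP shDHPS and NoASP shSCR for *Ccn1* were the 1 pair past the threshold.

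The 8 genes were then compared with each other over the 14 libraries, as a description in which group differences and library composition are shared by all points. *Ccn1* and *Ccn2* ran together, with a Pearson r of 0.84 on log2 CPM and of 0.83 after each group's mean was removed. *Skil* and *Pmepa1* also ran together, with 0.81 and 0.74, and *Ccn1* ran opposite to *Pmepa1*, with -0.83 and -0.73. Replicate 2 of ASP shSCR and of NoASP shSCR deviated from their group means in these genes, and their part in these r was not tested. They lay 0.62 and 0.47 from their group means on the log2 scale for *Skil*, 0.15 and 0.29 for *Pmepa1*, and -0.21 and -0.61 for *Ccn1*. No r in this paragraph was computed without them. Among *Id1*, *Id2* and *Id3* r lay between -0.16 and 0.42 over the libraries and between -0.03 and 0.48 after each group's mean was removed. The pair *Id2* and *Id3* moved from -0.12 to 0.48 and the pair *Id1* and *Id2* from 0.42 to -0.03. Of 9804 other genes of at least 5 CPM, the 3 most like *Ccn1* were *Lgmn* (r = 0.961), *Gpr137b* (0.959) and *B4galt7* (0.956), and the 3 most like *Pmepa1* were *Jak2* (0.970), *Sesn3* (0.967) and *Slc4a11* (0.963). *Ccn2* was most like *Got2* (0.957), *Myc* (0.937) and *Gadd45b* (0.931), and *Id2* most like *Mgp* (0.927), *Trib2* (0.908) and *Mitf* (0.893). *Skil* was most like *Nadk2* (0.962), *Pdk1* (0.956) and *Rhoq* (0.951). The nearest genes were less alike for *Tgfbi* (*Camsap1* at 0.882), *Id1* (*Plekhf1* at 0.865) and *Id3* (*Spop* at 0.885).

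**Figure D3:**
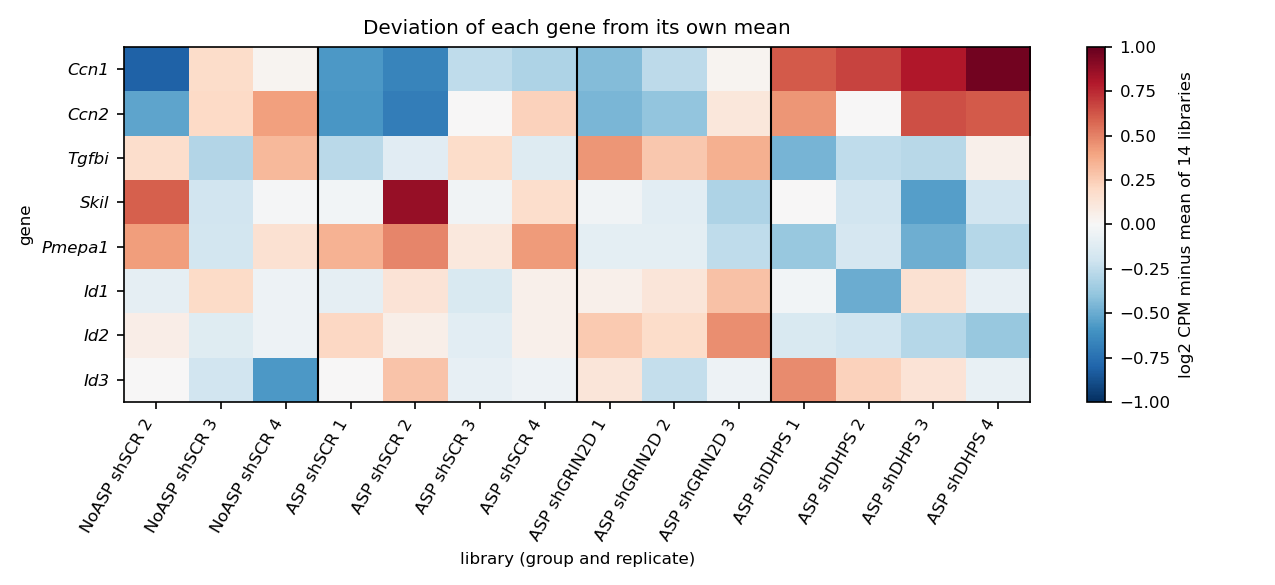
Log2 CPM of each of the 8 genes (rows) in each of the 14 libraries (columns, by group and replicate) minus the gene's mean over the libraries, from -1 in blue to 1 in red. *Ccn1* and *Ccn2* share a red block in ASP shDHPS and blue cells in replicate 2 of both shSCR groups, where *Skil* and *Pmepa1* are red.

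Next, the pathway around the 8 genes was examined. Of 84 genes in these lists above 3 counts in a library, 4 were called with shGRIN2D, 11 with shDHPS and 12 between the knockdowns. Over all 19525 genes, 0.425% were called higher and 0.732% lower with shGRIN2D, and 1.65% and 2.57% with shDHPS. Between the knockdowns these shares were 1.2% and 1.62%. With aspartate, edgeR and DESeq2 each called 0 genes of the lists below. Among the 17 other TGF-β and Smad3 targets above 3 counts in a library, 1 rose with shGRIN2D, and 1 rose and 1 fell with shDHPS. *Tgm2*, a matrix cross-linking transglutaminase, fell with shDHPS from 126 ± 21.1 to 82.8 ± 10.5 CPM (SD, n = 4 each), log2 fold change -0.61 (SE 0.12; edgeR QL F-test, BH-adjusted p = 0.00436), in all 16 alternatives. *Hmga2*, a chromatin architecture protein, rose from 468 ± 27.7 CPM in ASP shSCR (SD, n = 4) to 641 ± 29.5 in ASP shGRIN2D (SD, n = 3), log2 fold change 0.45 (SE 0.08; edgeR QL F-test, BH-adjusted p = 0.00419), a call lost in 1 of 15 alternatives, without ASP shGRIN2D replicate 1 (0.0568 by the same test). In ASP shDHPS it was at 571 ± 26.9 CPM, log2 fold change 0.29 (SE 0.08; edgeR QL F-test, BH-adjusted p = 0.0352), a call kept in 9 of 16 alternatives. *Smad7*, an inhibitory Smad, was at 36.8 ± 5.84 CPM in ASP shSCR, 27.0 ± 3.34 in ASP shGRIN2D and 31.1 ± 6.79 in ASP shDHPS (SD), and missed the threshold in both knockdowns.

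Among the 8 other BMP targets, *Id4* was the 1 gene called, and it was lower in both knockdowns. Apart from *Id4*, *Smad6* and *Smad7*, these genes had means under 1 CPM in every group, where a change could hardly be called. The values of *Id4* follow. It was at 28.6 ± 1.76 CPM in ASP shSCR (SD, n = 4), 18.9 ± 3.34 in ASP shGRIN2D (SD, n = 3) and 20.9 ± 3.16 in ASP shDHPS (SD, n = 4). The range of ASP shSCR, 26.3 to 30.5 CPM, did not overlap that of ASP shGRIN2D (15.7 to 22.4) or of ASP shDHPS (17.0 to 23.7). The ranges of the knockdowns overlapped each other. Among genes of at least 5 CPM, 17.1% did not overlap between ASP shGRIN2D and ASP shSCR, and 16.7% between ASP shDHPS and ASP shSCR. The log2 fold change of *Id4* was -0.59 (SE 0.13) with shGRIN2D and -0.46 (SE 0.12) with shDHPS (edgeR QL F-test, BH-adjusted p = 0.0215 and 0.0297). The first call was lost without replicate 1 or 4 of ASP shSCR and without replicate 1 or 2 of ASP shGRIN2D (up to 0.180 by the same test). The second was lost without ASP shSCR replicate 1, 2 or 4, ASP shDHPS replicate 1 or 3 or both shSCR replicate 2 libraries (up to 0.0957). Its paralogs *Id1*, *Id2* and *Id3* were not called against ASP shSCR.

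Of 11 TGF-β ligands, receptors and Smads, *Tgfb3* rose with shGRIN2D and none was called with shDHPS, and of 9 BMP ligands, receptors and Smads none was called in either. *Tgfb3*, a ligand, was at 69.6 ± 2.99 CPM in ASP shSCR and 97.3 ± 12.2 CPM in ASP shGRIN2D, and its call was lost without ASP shGRIN2D replicate 1 or 3 (edgeR QL F-test, BH-adjusted p = 0.0101, and up to 0.107 in those fits). *Smad3*, the receptor-activated Smad, was at 278 ± 50.8 CPM in ASP shSCR, 254 ± 17.0 in ASP shGRIN2D and 209 ± 26.5 in ASP shDHPS (SD), and its log2 fold change of -0.41 with shDHPS missed the threshold (edgeR QL F-test, BH-adjusted p = 0.0577). The 5 secreted BMP and activin antagonists gave 0 calls in either knockdown against ASP shSCR. In these lists *Acvrl1*, *Bmp6*, *Bmpr1b*, *Nog* and *Chrd* had means under 1 CPM in every group, where a change could hardly be called.

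*Ccn1* and *Ccn2* are also classical YAP and TAZ targets, and of the other 18 genes of that list 1 fell with shGRIN2D and 3 fell with shDHPS. *Ankrd1*, a cardiac ankyrin repeat protein, fell with shGRIN2D from 26.1 ± 3.23 to 11.9 ± 0.402 CPM, log2 fold change -1.13 (SE 0.12; edgeR QL F-test, BH-adjusted p = 1.00e-05), in all 15 alternatives. *Amotl1*, an angiomotin that binds YAP, fell with shDHPS from 568 ± 109 to 336 ± 53.3 CPM, log2 fold change -0.76 (SE 0.14; edgeR QL F-test, BH-adjusted p = 0.00365), in all 16 alternatives. *Nt5e*, the ecto-nucleotidase CD73, was at 275 ± 12.0 and 211 ± 29.6 CPM and *Nuak2*, a kinase, at 11.3 ± 1.68 and 8.16 ± 0.427 CPM, and both were called lower here and in 11 and 7 of 16 alternatives. No other gene on this list was called higher with shDHPS, as *Ccn1* was. Of the 3 other CCN genes in the table, *Ccn4* was called lower with shDHPS, at 5.33 ± 0.467 against 8.14 ± 2.00 CPM, in 10 of 16 alternatives.

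Of 14 immediate-early genes, the class that responds to serum and growth factors, 2 rose and 1 fell with shDHPS, and 0 were called with shGRIN2D. *Atf3*, a stress-responsive factor, rose from 7.50 ± 1.50 to 18.6 ± 3.07 CPM, log2 fold change 1.31 (SE 0.17; edgeR QL F-test, BH-adjusted p = 0.000103), and *Egr3* fell from 33.5 ± 3.98 to 19.3 ± 1.47 CPM, both in all 16 alternatives. *Fosl1*, an AP-1 subunit, rose from 158 ± 36.3 to 259 ± 42.9 CPM, a call kept in 11 of 16. Of the 3 E proteins that Id proteins bind, *Tcf4* was called lower with shDHPS, at 101 ± 13.1 against 141 ± 27.8 CPM, but in 6 of 16 alternatives only.

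**Figure D4:**
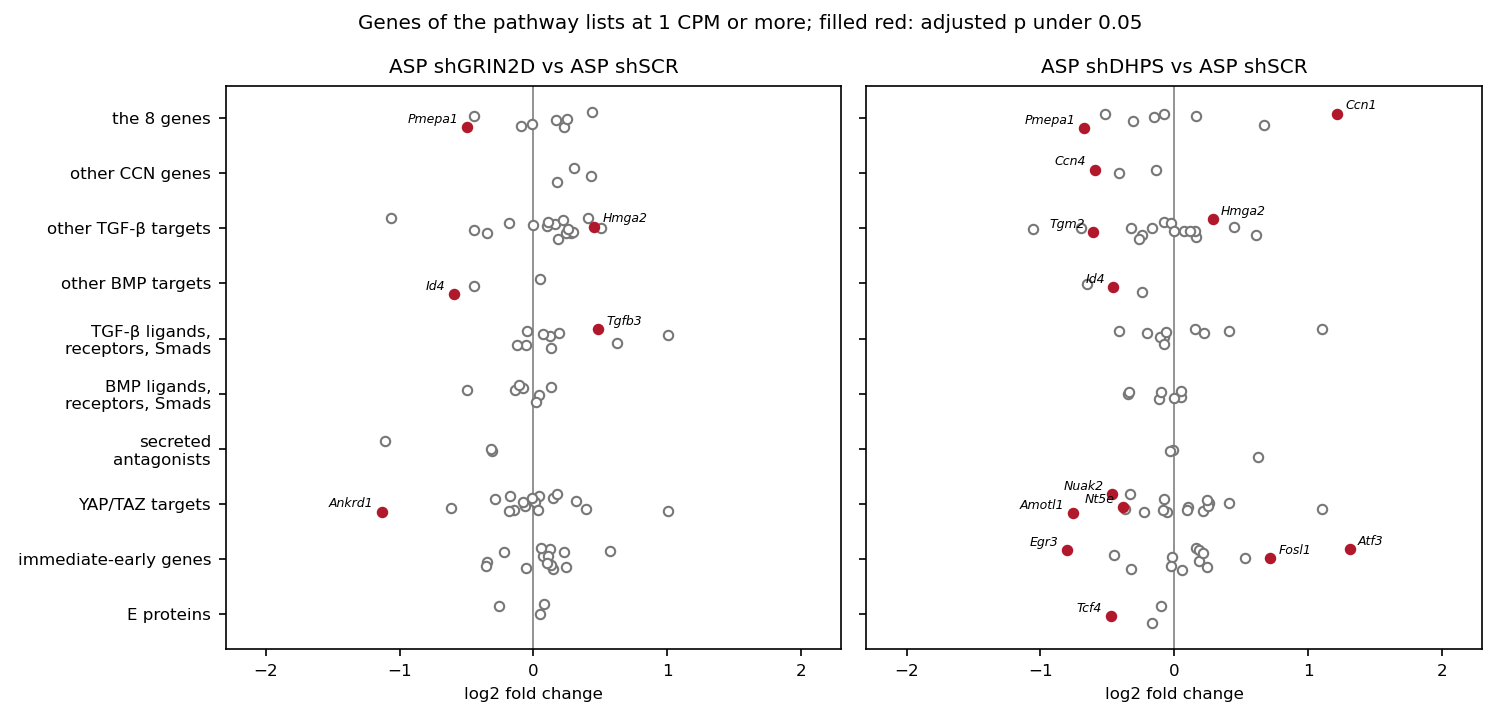
Log2 fold change (horizontal axis) of the genes of each pathway list (rows) with at least 1 CPM in the higher group, with shGRIN2D on the left and shDHPS on the right; filled red points have an adjusted p under 0.05 (edgeR) and are named, and vertical scatter within a row carries no value. Called genes lie on both sides of 0 in the shDHPS panel, with *Ccn1* and *Atf3* farthest to the right.

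Finally, the knockdowns were set against each other directly, a comparison that uses no ASP shSCR library. *Ccn1* was 1.98-fold higher in ASP shDHPS than in ASP shGRIN2D, log2 fold change 0.99 (SE 0.17) and a 95% interval of 0.63 to 1.34 (edgeR QL F-test, BH-adjusted p = 0.00181). It passed in all 14 alternatives that tested against no change, at 0.88 to 1.12. *Ccn2* differed by 0.68 with a 95% interval of 0.21 to 1.16, which missed the threshold (edgeR QL F-test, BH-adjusted p = 0.129). In the lists around the 8 genes, the calls that passed in all 14 alternatives were *Tgm2* (82.8 ± 10.5 CPM in ASP shDHPS against 136 ± 3.27 in ASP shGRIN2D), *Tgfb3* (64.6 ± 4.03 against 97.3 ± 12.2), *Ankrd1* (24.7 ± 1.44 against 11.9 ± 0.402) and *Egr3* (19.3 ± 1.47 against 36.3 ± 4.75). *Ankrd1* was thus higher, and the other 3 lower, in ASP shDHPS.

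A further 8 list genes were called between the knockdowns and lost the call without at least 1 library. *Amotl2*, an angiomotin (38.1 ± 9.78 CPM in ASP shDHPS against 21.4 ± 2.96 in ASP shGRIN2D), and *Fst*, the activin antagonist follistatin (2.69 ± 0.340 against 0.811 ± 0.169), were higher in ASP shDHPS and lost it without ASP shGRIN2D replicate 1. *Ccn4* (5.33 ± 0.467 against 9.13 ± 1.17) was lower and lost it without ASP shGRIN2D replicate 1 or 2. *Atf3* (18.6 ± 3.07 against 11.1 ± 0.861) and the BMP ligand *Bmp7* (24.6 ± 1.67 against 16.9 ± 0.834) were higher and passed in 10 and 9 of 14 alternatives, lost without any 1 shGRIN2D library or ASP shDHPS replicate 3, and *Bmp7* also without ASP shDHPS replicate 2. *Thbs1*, thrombospondin (540 ± 117 against 784 ± 72.9), was lower and *Tgif1*, a Smad co-repressor (158 ± 14.4 against 125 ± 7.21), higher, each in 8 of 14, lost without any 1 shGRIN2D library and without ASP shDHPS replicate 1 or 3, and *Thbs1* also without replicate 2 and *Tgif1* also with only the groups compared. *Fn1*, fibronectin, was at 765 ± 281 against 1410 ± 424 CPM with overlapping libraries and passed in 5 of 14 alternatives, lost with DESeq2, with library size only, with filterByExpr, with a robust prior and without ASP shGRIN2D replicate 2 or 3 or ASP shDHPS replicate 1, 2 or 3.

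The 3′ UTRs of the members were searched for TCATGAA, because an earlier analysis of these data had found that sequence in many genes that fell with shGRIN2D. It was present in 12.6% of 14091 genes with an annotated 3′ UTR, in 66 of 139 genes called lower with shGRIN2D (47.5%) and in 6 of 79 called higher (7.59%). Of the genes called with shDHPS it was in 15.3% of the lower and 11% of the higher. *Pmepa1*, the member that fell with shGRIN2D, held 0 copies in every annotated transcript, as did *Ccn1*, *Tgfbi*, *Id1*, *Id2* and *Id3*, and *Ccn2* and *Skil* held 1 in some of their transcripts. *Id4* and *Ankrd1*, called lower with shGRIN2D, each held it, while *Tgfb3* and *Hmga2*, called higher, did not. Because the sequence was picked from genes that fell with shGRIN2D in these same data, its shares among the called genes are a description and not a test. The part of this sequence in the levels was not tested.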

How the data were processed

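Polyadenylated cytosolic RNA of 4T1 spheroids was sequenced in 14 libraries, grouped by the sample descriptions. The deposited values are estimated counts that the authors made by trimming (Trim Galore 0.6.6), mapping to GRCm39 (STAR 2.6.1), quantifying (Salmon 1.4.0) and rounding to whole numbers, after which they removed genes with too few expressing replicates. Salmon shares reads among similar transcripts by estimation. The authors' tables of DESeq2 fold changes and of gene set scores were not used. The table had 0 columns of other samples.

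Counts were tested with edgeR 4.0.16 (R 4.3.3): TMM (factors 0.984 to 1.02), a quasi-likelihood fit of all 14 libraries on group alone, and Benjamini-Hochberg adjustment over 19525 genes. CPM was scaled by TMM, and log2 CPM used a prior count of 2. SD is over libraries. Lengths and 3′ UTRs came from GENCODE M21 (GRCm38) and promoters from RefSeq, and no coordinates of GRCm39 are given. On simulated counts for ASP shDHPS against ASP shSCR (19525 genes), 81 of 100 genes changed 1.5-fold and 99 of 100 changed 2-fold were called, with 17 false calls. The changed genes were drawn only from those with a mean of at least 5 CPM. Counts were drawn independently for each library, without the shared deviations of same-numbered libraries, so these are not rates for the real data. The labels do not say whether replicates were separate cultures (the study names independent spheroid pellets). The p-values therefore weigh group differences against the spread between these samples only. Intervals are for the log2 fold change between groups, with a width set from that spread, and are not ranges of library values.

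The 8 genes, the pathway lists and the tests were chosen with earlier results of these data known. All 8 genes are named in every comparison. From the other lists the called genes are named, at most 6 per list and comparison by size, with a mean of at least 1 CPM in the higher group, and for likeness the 3 genes with the highest r, predicted gene models and pseudogenes left out. *Smad7* and *Smad3* were named after their values were seen, and 1 gene counted in the lists is not reported here by name. Same-numbered ASP shSCR and NoASP shSCR libraries deviated together (r = 0.514, 0.287 and 0.203), so a replicate block suits that comparison. The block was run only as an alternative, and the fold changes and intervals given with aspartate come from the fit without it. In the other comparisons not every same-numbered pair deviated together: r was over 0.1 in 3 of 4 pairs for shDHPS against ASP shSCR. It was in 0 of 3 for shGRIN2D against ASP shSCR and in 1 of 3 between the knockdowns. The alternatives were DESeq2 1.42.0, RLE size factors, library size only, filterByExpr, a robust prior, only the groups compared, the replicate block, a test against 1.5-fold, each library left out and, chosen after seeing the data, both shSCR replicate 2 libraries left out and the block within the 7 shSCR libraries.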

Additional observations from a re-analysis of the deposited data

Results flagged for a closer look

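The effects of the knockdowns on *Ccn1* and *Id2*, measured in the same medium, differed from each other when tested directly. *Ccn1* was higher in ASP shDHPS than in ASP shGRIN2D by 0.99 on the log2 scale (edgeR QL F-test, BH-adjusted p = 0.00181), with all 4 shDHPS libraries above all 3 shGRIN2D libraries. *Id2* had log2 fold change -0.56 (edgeR QL F-test, BH-adjusted p = 0.00183), with all 4 shDHPS libraries below all 3. In 16 groups of 4 libraries (8 genes in ASP shSCR and ASP shDHPS), 0 held a library far from the others by Dixon's criterion, which chance meets in about 1 of 20 groups.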

How the results depend on the processing

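Of the 8 genes, the number called with aspartate was 0 under every alternative run. With shGRIN2D it was 1, against 0 with filterByExpr, 0 against a 1.5-fold change and 0 to 1 with 1 library left out. With shDHPS it was 2, against 4 with DESeq2 (*Ccn2* and *Id2* added), 1 against a 1.5-fold change and 2 to 3 with 1 library left out. Between the knockdowns it was 2, against 0 against a 1.5-fold change and 2 to 2 with 1 library left out. With the replicate block the counts in these 3 comparisons were 2, 5 and 4 of the 8. Over all 19525 genes the calls rose too, to 611, 2150 and 1468 from 226, 824 and 550 without the block. In those 3 comparisons the labels give only a shared number, and 1 of 6, 5 of 8 and 2 of 6 libraries correlated best with their own number. For shDHPS against ASP shSCR 3 of 4 same-numbered pairs had r over 0.1 (0.0404 to 0.258 over the 4), so the block may apply there as well. For ASP shSCR against NoASP shSCR, where the pairing held, the block called 0 of the 8, also within the 7 shSCR libraries, and over all genes 2 and 64 in place of 0.

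Directions that turned were all of genes not called. With 1 library left out, the log2 fold change with aspartate was -0.13 to 0.40 for *Skil* (negative without ASP shSCR replicate 2 or NoASP shSCR replicate 3) and -0.090 to 0.056 for *Id1*, that with shGRIN2D -0.21 to 0.16 for *Ccn2* (0.14 with the block), that with shDHPS -0.17 to 0.031 for *Id1*, and that between the knockdowns -0.16 to 0.018 for *Skil*. Over all genes the calls ranged from 8 to 611 with shGRIN2D (226 here; 8 against 1.5-fold, 442 with DESeq2), from 27 to 2150 with shDHPS (824; 27 and 1379) and from 48 to 1468 between the knockdowns (550; 48 and 933). The other lists were not put to the test against 1.5-fold. Under the remaining alternatives their calls ranged from 1 to 13 (4 here), 5 to 26 (11) and 5 to 22 (12). Of 27 results on named list genes 9 passed under every one of those alternatives, 18 lost the call under at least 1 and 0 turned direction. Without both shSCR replicate 2 libraries the shDHPS calls of *Hmga2*, *Id4*, *Nt5e*, *Nuak2* and *Tcf4* against ASP shSCR were lost. The cause of these differences was not tested. Library-size scalings moved the median of all genes by at most 0.02. At 61 to 139 counts a library, *Tgfbi* held the fewest counts of the 8 genes.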
